A study of Mus musculus with 28 samples.

Results

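B cell genes were followed in RNA of sorted mouse T cells, as 8 members: Cd79a, Cd79b, Cd22, Cd72, Ms4a1, Blk, Blnk and Pax5. They were chosen by name, as genes of B cell identity and antigen receptor signalling with a probe well above background on 3 or more of 28 arrays, and each is shown by its brightest probe. All 8 listed genes met this rule, among 19441 genes kept in all. Blk was above background on 5 arrays and Pax5 on 6, the members nearest to that limit, while Cd79b was above it on all 28 arrays and Cd72 on all 27 that gave a value. All 6 arrays with Pax5 above background and 4 of the 5 with Blk were of old cells, so the rule itself favours a difference with age in both.

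The arrays are one-colour Agilent arrays. RNA came from T cells of BALB/c mice, a common inbred strain, in 20 groups. The groups before stimulation (0 h) are old CD8, young CD8, old CD4 and young CD4 cells, with 3 arrays each, and the 16 stimulated groups are the same cells after 4, 12, 24 or 72 h on plates coated with antibodies to CD3 and CD28, with 1 array each. Old mice were 20 months of age and young mice 4 months. The labels give no transgene or gene deletion. RNA of each time point was a pool of 4 independent sortings and nothing in the labels says that the arrays at 0 h come from separate animals, so the spread behind the p-values may be technical. On the sort the labels disagree: by the titles and the growth protocol the cells were high in CD44, and by the descriptions and the series design they were naive and low in it.

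A B cell recognises antigen with a membrane immunoglobulin, and the CD79A and CD79B chains bound to it pass the signal into the cell. Kinases such as BLK and the adaptor BLNK carry that signal on, CD22 and CD72 dampen it, and PAX5 is the transcription factor that maintains B cell identity. T cells signal through CD3 chains instead, and several of these genes serve as textbook markers that tell B cells from T cells.

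Levels below are log2 of the processed signal minus that of the array's 75th percentile, so that 0 is the 75th percentile of the array. Differences between groups are in log2, with their standard error, and p-values are adjusted by Benjamini-Hochberg over all genes, with a threshold of 0.05. Cd8a and Cd4 told the cell types apart at 0 h. Cd8a lay at 6.44 to 6.97 in CD8 cells and at -3.37 to -1.92 in CD4 cells. Cd4 lay at -3.74 to -2.97 in CD8 cells and at -1.56 to 0.29 in CD4 cells. Cd8b1 lay at 7.96 to 8.95 in CD8 cells and at 2.51 to 3.51 in CD4 cells, above background on every array of both. These levels do not measure how pure the sorts were. All 16 T cell markers of a list were above background on every array at 0 h. An array had 16972 to 28803 probes well above background. The CD4 arrays at 12 to 72 h were dim: their 75th percentile lay at 120.6 to 275 units, and that of all other arrays at 247 to 874.5. Each slide held 1 cell type. At 0 h the CD8 arrays lay on slide 13 (old 1 and 2, young 2 and 3) and slide 4 (old 3, young 1), and the CD4 arrays on slide 12 (arrays 1 and 2 of both ages) and slide 9 (array 3 of both ages). Replicates on the same slide differed across genes with a standard deviation of 0.460 to 0.807, and replicates on different slides with 0.929 to 1.261. In the authors' series matrix 6 columns, those of stimulated CD8 cells at 4, 12 and 24 h in both ages, hold the array of another of these times. The scanner files were followed here, and 8 of 8 stimulated CD8 arrays in them changed from 0 h most like the CD4 cells of their own labelled time.

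The promoter windows shown are those of the members in which a searched motif was found, to place them beside the values that follow. RefSeq windows (250 bases before to 50 after the start, build GRCm38.p6, 5′ to 3′ on the gene's strand) matched 5 of the 8 members. Searched on both strands were TCCC and GGGA parted by any NN, bound by EBF1, ATTTGCAT, the octamer bound by Oct factors, and GAGGAAGT, a form of the PU.1 motif, none of which overlapped another here. Capitals mark the match. The whole windows are chr7:30878979-30879278 on the minus strand for Cd22 (EBF1 motif), chr19:40994172-40994471 on the minus strand for Blnk (octamer) and chr4:43454577-43454876 on the minus strand for Cd72 (PU.1 motif, on the opposite strand).
Cd22: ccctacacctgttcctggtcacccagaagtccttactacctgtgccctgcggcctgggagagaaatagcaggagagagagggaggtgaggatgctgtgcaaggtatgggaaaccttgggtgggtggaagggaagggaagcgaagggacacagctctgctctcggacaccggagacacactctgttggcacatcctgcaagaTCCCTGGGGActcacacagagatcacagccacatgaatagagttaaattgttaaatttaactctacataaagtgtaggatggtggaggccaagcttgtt
Blnk: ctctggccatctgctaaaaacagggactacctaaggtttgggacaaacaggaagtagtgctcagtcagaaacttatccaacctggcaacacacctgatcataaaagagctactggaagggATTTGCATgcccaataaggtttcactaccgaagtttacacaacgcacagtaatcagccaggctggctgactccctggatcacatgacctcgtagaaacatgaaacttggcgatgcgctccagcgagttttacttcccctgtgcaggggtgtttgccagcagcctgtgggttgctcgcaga
Cd72: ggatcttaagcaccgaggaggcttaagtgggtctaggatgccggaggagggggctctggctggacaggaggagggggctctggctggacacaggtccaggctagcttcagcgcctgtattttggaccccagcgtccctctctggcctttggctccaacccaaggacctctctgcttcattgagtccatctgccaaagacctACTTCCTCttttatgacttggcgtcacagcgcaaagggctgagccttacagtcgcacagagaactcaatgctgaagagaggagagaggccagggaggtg
Each motif was in 1 of the 5 windows. Of 32851 RefSeq windows of this length, the EBF1 motif was in 0.904%, the octamer in 1.74% and the PU.1 motif in 3.20%. The windows of Pax5 and Cd79a held none of these letters. Ms4a1, Cd79b and Blk are named only.

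Before stimulation several members were higher in old than in young cells, and those that passed the test in CD8 cells were others than in CD4 cells. In CD8 cells Cd22 and Cd72 passed the test, 2 of 8 members, against 1.69% of all genes called higher in old CD8 cells. In CD4 cells Ms4a1, Pax5, Blnk and Cd79b passed it, 4 of 8, against 1.21% of all genes called higher in old CD4 cells. Pax5 is no support in that count, since it met the detection rule through old cells only. In the CD4 arrays the replicate numbers follow the slides. With them as a block for CD4 cells, added after seeing the data, 5 of 8 passed, Cd72 being added (adjusted p = 0.048). The median difference of the 8 members was 1.20 in CD8 cells and 2.26 in CD4 cells, and that of all genes was -0.05 in CD8 and -0.03 in CD4 cells. No member passed the limma test of the difference between the cell types' age effects, 0 of 8 with 3 at an unadjusted p under 0.05, against 0.0514% of all genes. With slide as a random block Cd79b did, with a difference between the age effects of -1.67 (CD8 minus CD4, adjusted p = 0.032). In bulk RNA such as this, fewer cells of a type and less RNA per cell cannot be told apart.

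**Figure D1:**
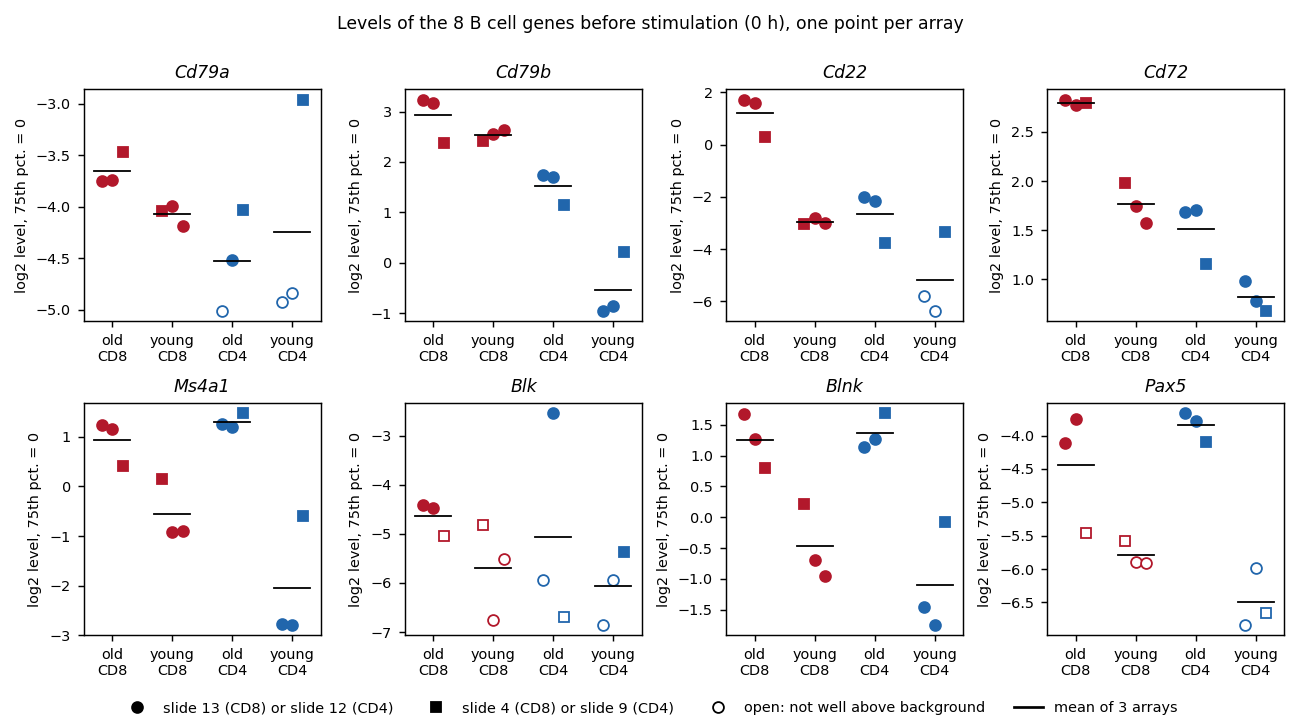
Level of each of the 8 genes on the 12 arrays at 0 h (y axis, log2 level with the array's 75th percentile at 0) in old CD8, young CD8, old CD4 and young CD4 cells (x axis), with the mean of 3 arrays as a line. Circles and squares are slides and open symbols are not well above background. Cd22 in old CD8 cells lies at 0.30 to 1.72, above all other arrays, whereas Ms4a1 and Blnk are high in old cells of both types.

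The signalling chains were at very different distances from background. Cd79b, measured by a probe at chr11:106420507-106420566 (mm7, the build of the files), was at 3.24, 3.16 and 2.38 on the 3 arrays of old CD8 cells and at 2.41, 2.55 and 2.64 on those of young CD8 cells. It was at 1.75, 1.70 and 1.14 in old CD4 cells and at -0.95, -0.86 and 0.22 in young CD4 cells. The ages overlapped in CD8 cells (0.39 ± 0.35, adjusted p = 0.81) and did not overlap in CD4 cells, where Cd79b was 4.18-fold higher in old cells (2.06 ± 0.35, adjusted p = 0.023). All CD8 arrays lay above all CD4 arrays, and the difference of CD8 minus CD4 cells was 2.23 ± 0.25 (adjusted p = 0.00031, n = 6 each). Young CD4 cells thus had the lowest level of the 4 groups.

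Cd79a, whose protein is the partner of CD79B, was near background throughout (probe at chr7:21688822-21689079, mm7). Its level was -3.75, -3.74 and -3.47 in old CD8 cells and -4.04, -4.0 and -4.18 in young CD8 cells, all above background. In old CD4 cells it was -5.01, -4.52 and -4.04, with 2 of 3 arrays above background, and in young CD4 cells -4.93, -4.84 and -2.96, with 1 above. No age difference passed the test, at 0.42 ± 0.47 in CD8 cells (adjusted p = 0.87) and -0.28 ± 0.47 in CD4 cells (adjusted p = 0.81). The CD4 value turned to 0.36 without array 3 of young CD4 cells, the 1 array of its group above background.

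Of the inhibitory receptors, Cd22 gave the largest age difference among the members. Cd22 (probe at chr7:27806351-27806410, mm7) was at 1.72, 1.57 and 0.30 in old CD8 cells and at -3.04, -2.83 and -3.01 in young CD8 cells. In old CD4 cells it was at -2.02, -2.17 and -3.77, and in young CD4 cells at -5.79, -6.37 and -3.35, where only array 3 was above background. All arrays of old CD8 cells lay above all arrays of the other groups at 0 h. The age difference was 4.16 ± 0.76 in CD8 cells, where Cd22 was 17.9-fold higher in old cells (adjusted p = 0.021), and 2.52 ± 0.76 in CD4 cells with overlap (adjusted p = 0.14). The other Cd22 probe was above background on 3 arrays, those of old CD8 cells at 0 h, and on none of the other arrays.

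Cd72, whose protein is a lectin-like receptor of B cells, was above background on the 27 arrays with a value (probe at chr4:43464012-43466156, mm7). It was at 2.83, 2.77 and 2.79 in old CD8 cells and at 1.98, 1.74 and 1.57 in young CD8 cells. In old CD4 cells it was at 1.69, 1.70 and 1.15 and in young CD4 cells at 0.98, 0.78 and 0.68. The ages did not overlap in either cell type, with a difference of 1.03 ± 0.20 in CD8 cells (adjusted p = 0.026) and 0.70 ± 0.20 in CD4 cells (adjusted p = 0.12). The other Cd72 probe gave 0.97 in CD8 and 0.66 in CD4 cells. Both receptors were higher in CD8 than in CD4 cells, Cd22 by 3.03 ± 0.54 (adjusted p = 0.0053) and Cd72 by 1.12 ± 0.14 (adjusted p = 0.00066), and with Cd79b they made 3 of 8 members called, against 8.73% of all genes called higher in CD8 cells. Cell type and slide cannot be fully told apart: with slide as a random block 0 of 8 were called by limma, with 2 at an unadjusted p under 0.05, and the differences were 2.12 for Cd79b (adjusted p = 0.15), 2.85 for Cd22 (adjusted p = 0.51) and 1.19 for Cd72 (adjusted p = 0.055).

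Ms4a1, which encodes the surface protein CD20, was at overlapping levels in old cells of both types. Its probe (chr19:10931002-10931061, mm7) gave 1.24, 1.16 and 0.42 in old CD8 cells and 0.15, -0.93 and -0.89 in young CD8 cells. In old CD4 cells it gave 1.26, 1.19 and 1.47, and in young CD4 cells -2.78, -2.79 and -0.60. Old and young arrays did not overlap in either cell type. The difference was 3.36 ± 0.56 in CD4 cells, 10.3-fold (adjusted p = 0.022), and 1.5 ± 0.56 in CD8 cells (adjusted p = 0.30). The other Ms4a1 probe gave 2.74 in CD4 and 1.57 in CD8 cells.

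Blnk, the adaptor that links the receptor's kinases to later steps, followed the order of Ms4a1. Its probe (chr19:40822777-40822836, mm7) gave 1.67, 1.27 and 0.80 in old CD8 cells and 0.22, -0.69 and -0.95 in young CD8 cells. It gave 1.13, 1.28 and 1.68 in old CD4 cells and -1.46, -1.75 and -0.08 in young CD4 cells. Again no old array overlapped a young one of its cell type, and Blnk was 5.50-fold higher in old CD4 cells (2.46 ± 0.46, adjusted p = 0.032). In CD8 cells the difference was 1.72 ± 0.46 (adjusted p = 0.11).

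Pax5 and Blk were close to background. Pax5 (probe at chr4:44538878-44538937, mm7) was above background on 2 of 3 arrays of old CD8 cells, at -4.11 and -3.76, and on no array of young CD8 cells, which read -5.91 to -5.58. It was above background on all 3 arrays of old CD4 cells, at -3.67, -3.78 and -4.09, and on none of young CD4 cells, which read -6.84 to -5.99. Pax5 was at least 2.07-fold higher in old CD4 cells (fitted means -3.85 in old and -6.49 in young, adjusted p = 0.016). In CD8 cells the fitted means were -4.44 in old and -5.79 in young (adjusted p = 0.16). No fold is bounded there, since old array 3 (-5.46) was below background too. With normexp background correction, which adds an offset of 50 units and so compresses dim signals, the CD4 difference was 0.39 (adjusted p = 0.46), and the other Pax5 probe, above background on 3 arrays, gave 0.23 in CD4 and 0.44 in CD8 cells.

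Blk, a kinase of the Src family (probe at chr14:58242375-58243512, mm7), was above background on arrays 1 and 2 of old CD8 cells (-4.41 and -4.46), on array 2 of old CD4 cells (-2.54), on array 3 of young CD4 cells (-5.37) and on no array of young CD8 cells. Its age differences of 1.06 ± 0.95 in CD8 cells (adjusted p = 0.81) and 1.00 ± 0.95 in CD4 cells (adjusted p = 0.64) did not pass the test. The CD4 value rested on 1 array and was -0.26 without array 2 of old CD4 cells.

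**Figure D2:**
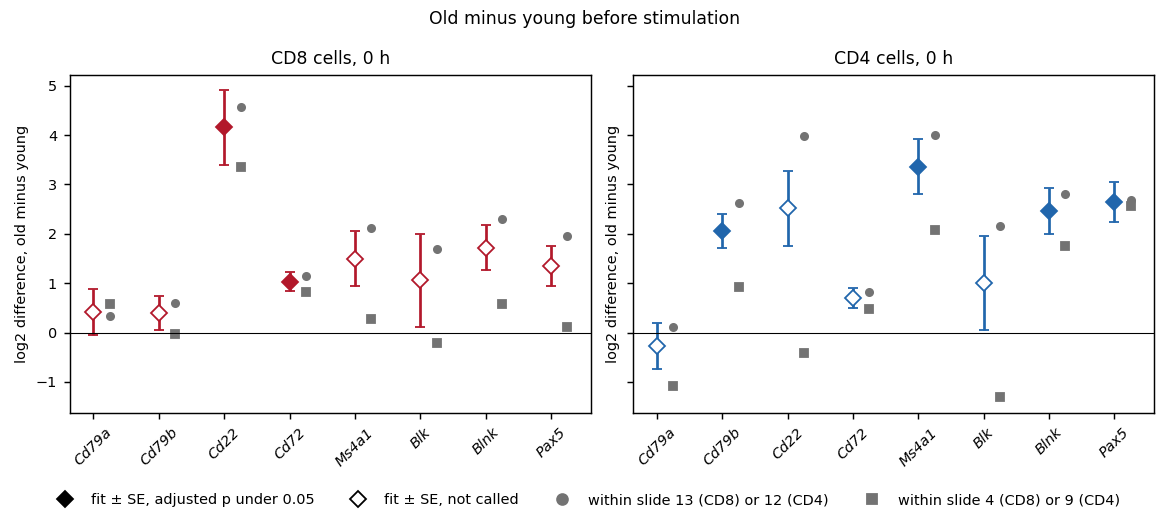
Old minus young log2 difference of each member at 0 h (y axis) in CD8 cells (left) and CD4 cells (right), as the fitted value ± SE (diamonds, filled where the adjusted p is under 0.05) and within each slide (grey symbols). Within slide 13 and slide 12 all 8 members lie above 0, whereas slides 4 and 9 hold values near or below 0, such as -0.03 for Cd79b on slide 4. Pax5 and Blk are no support there, since they met the detection rule only or mostly through old cells.

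In CD8 cells every old array lay above every young array for 6 of 8 members, all but Cd79b and Blk, against 10.7% of all genes. In CD4 cells this held for 5 of 8, namely Cd79b, Cd72, Ms4a1, Blnk and Pax5, against 14.2% of all genes. Pax5 is no support in either count, since it met the detection rule through old cells only. In CD8 cells its old array 3 (-5.46) and its young arrays (-5.91 to -5.58) were below background, so their readings have no order. Every CD8 array lay above every CD4 array for Cd79b alone among the members, against 5.72% of all genes.

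The size of the age difference depended on the slide. Within slide 13 old CD8 cells were higher than young ones for 8 of 8 members, by 0.34 (Cd79a) to 4.56 (Cd22), with a median of 1.83. Within slide 4, with 1 array per age, Cd22 differed by 3.35, Cd72 by 0.82, Blnk and Cd79a by 0.58, Ms4a1 by 0.27, Pax5 by 0.12, Cd79b by -0.03 and Blk by -0.21, and the median of the 8 was 0.42. Within slide 12 old CD4 cells were higher for 8 of 8 members, by 0.12 (Cd79a) to 4.01 (Ms4a1), with a median of 2.66. Within slide 9 the differences were 2.57 for Pax5, 2.07 for Ms4a1, 1.76 for Blnk, 0.92 for Cd79b, 0.47 for Cd72, -0.42 for Cd22, -1.07 for Cd79a and -1.31 for Blk, with a median of 0.70. The members called in CD4 cells were thus higher in old cells on both of their slides, and so were Cd22 and Cd72 in CD8 cells. Pax5 and Blk are no support in these counts, since they met the detection rule only or mostly through old cells. Their young arrays on slides 12 and 13 were all below background. No share of all genes stands beside the counts within a slide. The median of all genes within a slide lay between -0.06 and 0.00.

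Which members were called changed with single arrays. Without array 1 or 2 of old CD4 cells, or array 1 or 2 of young CD4 cells, 0 of 8 passed in CD4 cells by limma, with 6 at an unadjusted p under 0.05 each time and a smallest adjusted p of 0.055 to 0.085. Without array 3 of old CD4 cells 3 passed (Ms4a1 then had an adjusted p of 0.051 and Blnk of 0.073), and without array 3 of young CD4 cells 5 passed, with Cd22 added at 3.43. Blnk also missed the threshold without array 1 (adjusted p = 0.054) or 2 (0.064) of old CD8 cells or array 2 (0.059) or 3 (0.056) of young CD8 cells, which share the estimate of spread. Without array 1 or 2 of old CD8 cells, or array 2 or 3 of young CD8 cells, 0 of 8 passed in CD8 cells, with 4 at an unadjusted p under 0.05 and a smallest adjusted p of 0.078 to 0.10, and without array 1 of young CD8 cells Cd72 alone did (Cd22 adjusted p = 0.061). Without array 2 of young CD4 cells Cd22 alone passed in CD8 cells, without array 3 of old CD8 cells 3 members did and without array 3 of young CD4 cells 4. Over these fits without 1 array Cd22 in CD8 cells stayed between 3.90 and 4.60 and Ms4a1 in CD4 cells between 2.99 and 4.09.

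Markers of other cells differed in summed level between slides and, on some slides, between ages, although by limma 0 of 20 dendritic and myeloid genes were called with age in either cell type (medians 0.87 in CD8 and -0.06 in CD4 cells). The summed level of 20 dendritic and myeloid genes (on a linear scale on which the 75th percentile is 1, so that bright probes weigh most) was 98.6 and 95.7 in old CD8 cells on slide 13, against 29.3 and 26.9 in young CD8 cells on that slide. On slide 4 it was 210.3 in old and 67.9 in young CD8 cells. In CD4 cells it was 27.2 and 27.9 in old and 15.3 and 14.9 in young cells on slide 12, and 262.2 in old and 256.7 in young cells on slide 9. Between 15 and 19 of the 20 genes were above background on each array at 0 h, while Cd209a, a further dendritic cell marker, was so on fewer than 3 of the 28 arrays and was not tested. The same sum over the 8 members was 16.6 to 25.5 in old and 10.5 to 11.8 in young CD8 cells, and 10.6 to 11.7 in old and 2.79 to 4.63 in young CD4 cells, and the array of young CD4 cells on slide 9 was the highest of its group. The part of other cells in the age differences was not tested.

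Of 23 other B lineage genes tested, 4 were called higher in old CD4 cells, against the 1.21% of all genes given above, namely Fcmr (2.73, adjusted p = 0.045), Cxcr5, a chemokine receptor of B cells and follicular helper T cells (2.39, adjusted p = 0.041), Tnfrsf13c, the receptor for the survival factor BAFF (1.74, adjusted p = 0.020), and Bank1, a scaffold protein of B cells (1.30, adjusted p = 0.041). In CD8 cells none was called higher by limma and Ralgps2 was called lower (-0.80, adjusted p = 0.044), and the median of the 23 was 0.40 in CD8 and 0.50 in CD4 cells. Ighm, the heavy chain of IgM, had 3 probes that disagreed in CD8 cells, with old minus young of 1.63, -0.23 and 1.57. In CD4 cells the same probes gave 0.35, 0.42 and 1.38, and the last of them was above background on 5 of 28 arrays. Ebf1, a transcription factor that acts with PAX5, was above background on 3 of 28 arrays at most with either probe. Genes of class II antigen presentation, which B cells share with dendritic cells, were called higher in CD8 than in CD4 cells in 10 of 11 cases (median 1.56), against the 8.73% of all genes given above, Cd74 among them (1.83 ± 0.37, adjusted p = 0.010). With age Cd74 differed by 1.61 in CD8 cells (adjusted p = 0.20) and by 0.99 in CD4 cells (adjusted p = 0.37).

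After stimulation many of the members fell, with more calls in CD8 than in CD4 cells. In CD8 cells 4, 5, 6 and 5 of the 8 were called lower at 4, 12, 24 and 72 h than at 0 h, against 13%, 14.2%, 17.1% and 14.4% of all genes. In CD4 cells 3, 2, 2 and 2 were called lower, against 16.4%, 16.4%, 19.6% and 16.9% of all genes, so that the count at 12 to 72 h was close to the background. None was called higher, against 14.3%, 16%, 16.1% and 13.6% of all genes in CD8 cells and 15.7%, 24.2%, 25.1% and 22.2% in CD4 cells. The median of the members was -1.49, -1.90, -2.30 and -2.02 in CD8 cells and -0.97, -0.54, -1.05 and -0.67 in CD4 cells, and that of all genes lay between -0.10 and 0.26. These fits held both ages, with 2 arrays at each time and 6 at 0 h. The stimulated CD4 arrays and those of slide 9 were read on scanner G2505B. Those of slide 12 and all CD8 arrays were read on G2505C, so the CD4 change from 0 h also holds a change of scanner.

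**Figure D3:**
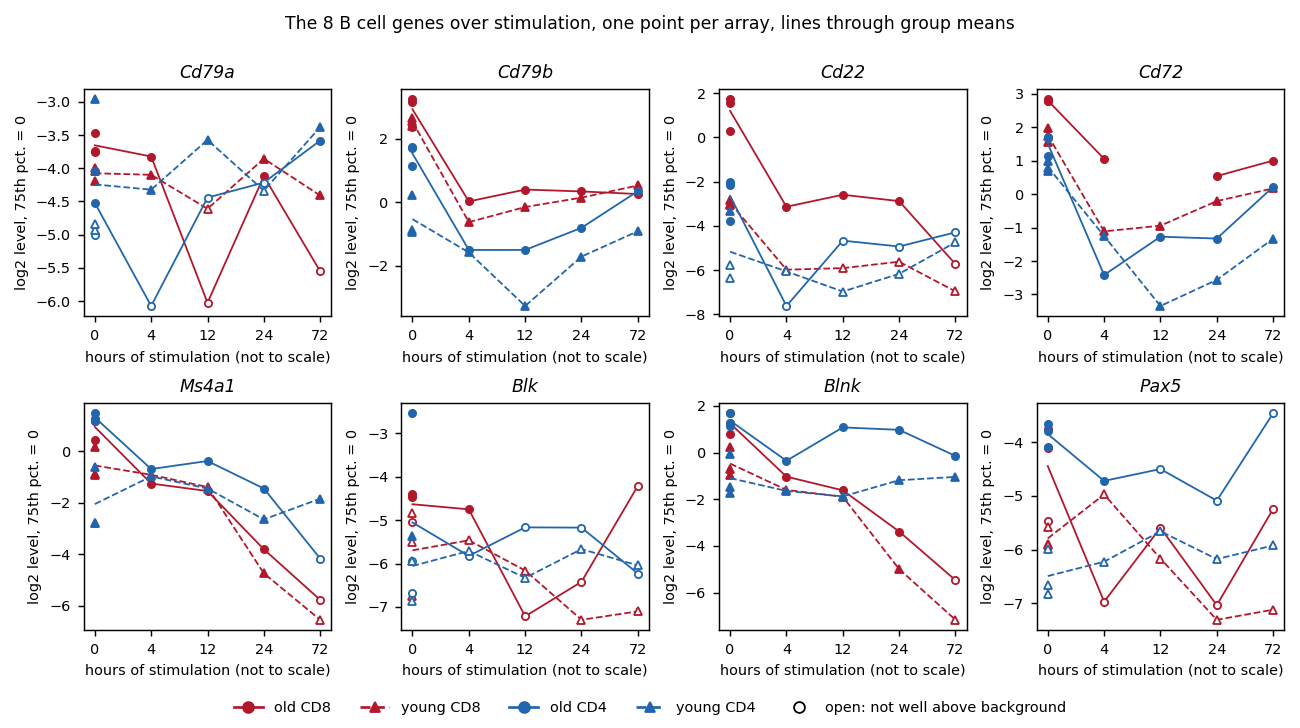
Level of each member on every array (y axis, log2 level) at 0, 4, 12, 24 and 72 h of stimulation (x axis, not to scale) in old CD8, young CD8, old CD4 and young CD4 cells. Lines join group means and open symbols are not well above background. Blnk and Ms4a1 go below background in CD8 cells by 72 h, whereas Blnk in stimulated CD4 cells lies between -1.88 and 1.08.

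Cd79b and Cd72 fell early and in both cell types. Cd79b was at 0.03, 0.40, 0.34 and 0.26 in old CD8 cells at 4, 12, 24 and 72 h and at -0.63, -0.15, 0.15 and 0.53 in young CD8 cells, all below every CD8 array at 0 h. In CD4 cells it was at -1.50, -1.50, -0.80 and 0.35 in old and at -1.58, -3.26, -1.71 and -0.91 in young cells. The difference to 0 h in CD8 cells was -3.03 ± 0.38 at 4 h (adjusted p = 8.6e-06) and -2.34 ± 0.38 at 72 h (adjusted p = 0.00013), and in CD4 cells it was -2.04 at 4 h (adjusted p = 0.00037), -2.88 at 12 h, -1.76 at 24 h and -0.78 at 72 h (adjusted p = 0.11).

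Cd72 was at 1.05, 0.54 and 1.00 in old CD8 cells at 4, 24 and 72 h, with no value at 12 h, and at -1.11, -0.94, -0.21 and 0.17 in young CD8 cells at the 4 times. It was at -2.42, -1.27, -1.33 and 0.21 in old CD4 cells and at -1.25, -3.34, -2.56 and -1.34 in young CD4 cells. No stimulated array reached the lowest level of its cell type at 0 h. The differences were -2.31, -2.65, -2.11 and -1.69 in CD8 cells and -3.0, -3.47, -3.11 and -1.72 in CD4 cells, with adjusted p from 4.4e-06 to 0.0052; the value at 12 h in CD8 cells rests on the young array. Levels at 72 h were above those at 4 h for both genes in both ages of CD4 cells, except that young Cd72 read -1.34 at 72 h and -1.25 at 4 h.

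Ms4a1 and Blnk reached their lowest levels late, at 72 h, in CD8 cells. Blnk was at -1.03, -1.62, -3.38 and -5.47 in old CD8 cells over the 4 times and at -1.60, -1.90, -5.00 and -7.17 in young CD8 cells, below background on both arrays at 72 h. In old CD4 cells it was at -0.35, 1.08, 0.97 and -0.15 and in young CD4 cells at -1.65, -1.88, -1.19 and -1.04. The CD8 level fell with each step of time in both ages, whereas in CD4 cells the old arrays lay below every old array at 0 h without such an order, and the young arrays at or near the young range at 0 h. In CD8 cells the difference to 0 h was -1.71 at 4 h (adjusted p = 0.010), -2.15 at 12 h (adjusted p = 0.0019) and -4.58 ± 0.47 at 24 h, 23.9-fold lower (adjusted p = 8.6e-07). At 72 h Blnk was at least 26.0-fold lower than at 0 h (means -6.32 at 72 h and 0.39 at 0 h, adjusted p = 1.2e-08). In CD4 cells no time passed the test, with -1.13, -0.54, -0.24 and -0.73 at 4 to 72 h and adjusted p of 0.076 to 0.40 at 4, 12 and 72 h and 0.72 at 24 h.

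Ms4a1 was at -1.26, -1.55, -3.81 and -5.77 in old CD8 cells and at -0.92, -1.39, -4.74 and -6.54 in young CD8 cells, below background at 72 h. In CD4 cells it was at -0.69, -0.38, -1.45 and -4.17 in old and at -0.98, -1.45, -2.65 and -1.84 in young cells, with the old array at 72 h below background. The difference to 0 h in CD8 cells was -4.46 ± 0.85 at 24 h, 22.1-fold lower (adjusted p = 0.00046), and at 72 h Ms4a1 was at least 22.7-fold lower (means -6.16 at 72 h and 0.19 at 0 h, adjusted p = 1.8e-05). In CD4 cells it was -2.63 ± 0.85 at 72 h (adjusted p = 0.019). If the time labels of the authors' series matrix were right for the 6 CD8 arrays named above, the Ms4a1 value at 24 h would be -1.26 (adjusted p = 0.32) and the Blnk value -1.69 (adjusted p = 0.012). The values at 72 h do not rest on those arrays.

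Cd22 left the detectable range in most stimulated arrays. In old CD8 cells it was at -3.14, -2.59 and -2.88 at 4, 12 and 24 h, above background, and below it at 72 h, and in young CD8 cells it was below background at all 4 times. In CD4 cells all 8 stimulated arrays were below background. The fall was -3.68 ± 0.83 at 4 h (adjusted p = 0.0025) and at least 10.8-fold at 72 h (means -6.35 at 72 h and -0.88 at 0 h, adjusted p = 7.1e-05) in CD8 cells. In CD4 cells Cd22 was called lower at 4 h (means -6.84 at 4 h and -3.91 at 0 h, adjusted p = 0.011). No fold is bounded there, since only 4 of 6 CD4 arrays at 0 h were above background. Without slide 13 at 0 h the CD8 differences at 4, 12 and 24 h no longer passed, and with normexp correction those at 4 h (-1.82, adjusted p = 0.053), 12 h (-1.75, adjusted p = 0.061) and 72 h (-1.20, adjusted p = 0.13) did not.

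Of the remaining members, Pax5 was called lower in CD8 cells at 24 h (means -7.17 at 24 h and -5.12 at 0 h, adjusted p = 0.0098). Its fold is not bounded, since only 2 of 6 CD8 arrays at 0 h were above background. Cd79a was called lower in CD8 cells at 12 h, by at least 1.79-fold (means -5.32 at 12 h and -3.86 at 0 h, adjusted p = 0.029). Both rest on arrays below background at the stimulated time and on the time labels that the series matrix gives otherwise. After stimulation Pax5 was above background only on the old CD4 array at 4 h (-4.72) and Blk only on the old CD8 array at 4 h (-4.75). No Blk difference to 0 h passed the test.

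The change from 0 h differed between the cell types for Blnk. Only the CD4 change holds a change of scanner, so cell type and scanner cannot be fully told apart here. The test of CD8 change minus CD4 change, added after the time courses had been seen, gave -4.34 ± 0.67 for Blnk at 24 h (adjusted p = 0.0021) and, as a fitted value, -5.98 at 72 h (adjusted p = 0.00011). At 72 h both CD8 arrays were below background, so that the CD8 fall is known only as at least 26.0-fold, against 1.66-fold in CD4 cells. With the CD8 time labels of the series matrix the value at 24 h was -1.46 (adjusted p = 0.11). At 24 h it was the 1 member of 8 called, against 2.88% of all genes called lower, and at 72 h Blnk and Cd22 were, 2 of 8, against 5.03%. Cd22 gave -4.86 ± 1.18 at 72 h (adjusted p = 0.017), but both CD4 and both CD8 arrays at 72 h were below background. The lowest level well above background at 72 h was -4.21 in old and -3.88 in young CD4 cells. It was -3.46 in old and -5.17 in young CD8 cells. Only 4 of 6 CD4 arrays at 0 h were above background, so that the CD4 fall is not bounded. Ms4a1 gave -3.72 ± 1.20 at 72 h (adjusted p = 0.063). With normexp correction Blnk gave -2.46 at 24 h (adjusted p = 0.071) and -1.06 at 72 h (adjusted p = 0.52) and Cd22 -1.58 at 72 h (adjusted p = 0.42), and without slide 13 at 0 h Cd22 gave -4.37 (adjusted p = 0.10). At 4 and 12 h limma called 0 of 8, with 0 members at 4 h and 2 at 12 h (Cd79a and Blnk) at an unadjusted p under 0.05, against 0.0412% and 0.78% of all genes.

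Many genes of other groups were called lower in the same arrays. Of the 23 other B lineage genes, 8, 11, 9 and 11 were called lower in CD8 cells at 4, 12, 24 and 72 h, and 7, 6, 5 and 8 in CD4 cells, where 3, 4, 5 and 4 were called higher. The shares of all genes are those given above for each time. In CD4 cells the share lower at 24 h was close to the 19.6% of all genes. The shares higher were not above the 15.7%, 24.2%, 25.1% and 22.2% of all genes. Of the 20 dendritic and myeloid genes, 7, 12, 15 and 12 were called lower in CD8 cells and 2, 3, 11 and 12 in CD4 cells, so that in CD4 cells at 4 and 12 h their share was not above the 16.4% of all genes. Of the 11 class II genes, 5, 9, 10 and 9 were called lower in CD8 cells and 4, 5, 7 and 4 in CD4 cells, where 1, 1, 1 and 4 were called higher. T cell genes fell too: of 16, 7, 7, 8 and 5 were called lower in CD8 cells and 1, 0, 0 and 0 higher. In CD4 cells 6, 7, 4 and 3 were called lower and 2, 4, 2 and 4 higher, with 15 tested at 24 and 72 h. The summed level of the dendritic and myeloid genes was 95.7 to 210.3 in old CD8 cells at 0 h and 16.7 at 72 h, and 26.9 to 67.9 in young CD8 cells at 0 h and 21.2 at 72 h. Their part in the fall of the members was not tested.

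**Figure D4:**
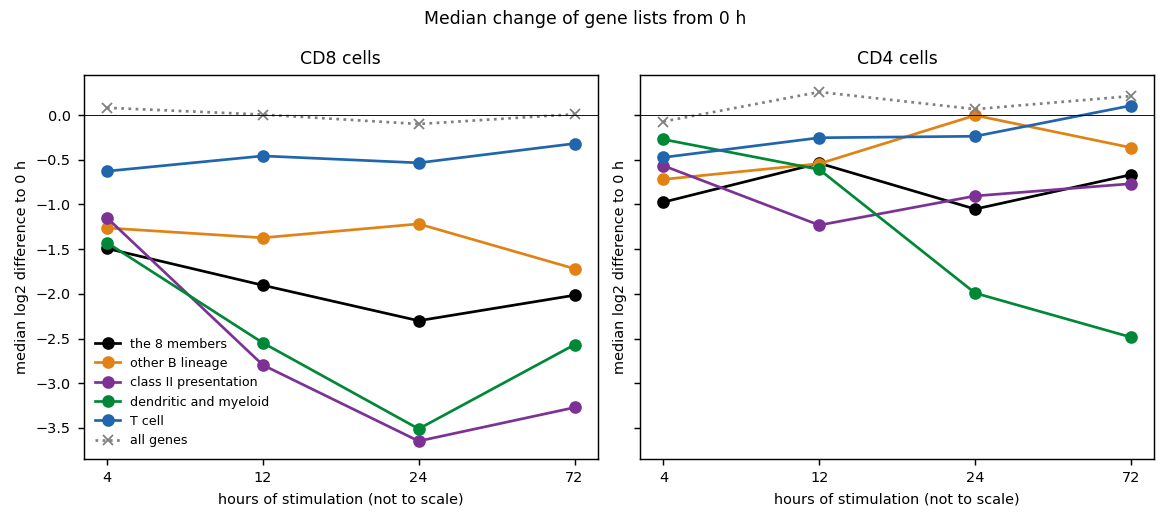
Median log2 difference to 0 h (y axis) of the 8 members and of 4 other gene lists at 4, 12, 24 and 72 h (x axis, not to scale) in CD8 cells (left) and CD4 cells (right), with all genes as a dotted line. The members reach -2.30 in CD8 cells at 24 h and -1.05 in CD4 cells, while the medians of the T cell list lie between -0.63 and 0.11. Single T cell genes fell too, with 8 of 16 called lower in CD8 cells at 24 h.

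Within the stimulated arrays no member differed between old and young cells past the threshold. In CD8 cells 0 of 8 were called by limma, with 2 at an unadjusted p under 0.05, against 0.412% of all genes, and in CD4 cells 0 of 8, with 3 at an unadjusted p under 0.05, against 0.113%. Old arrays read higher at all 4 times for Cd22 and Blnk in CD8 cells and for Cd79b, Blnk and Pax5 in CD4 cells, against 10.4% of all genes in CD8 and 8% in CD4 cells, and for Cd72 in CD8 cells at the 3 times measured. Where both ages were below background these readings have no order, which was so for Cd22 and Blnk in CD8 cells at 72 h and for Pax5 in CD4 cells at 12, 24 and 72 h. Cd79b and Blnk in CD4 cells were above background at all 4 times in both ages. Blnk in CD4 cells was 1.83 ± 0.39 higher in old cells over the 4 times, by 0.90 to 2.96 at each (adjusted p = 0.17). Cd22 in CD8 cells had means of -3.59 in old and -6.12 in young cells (adjusted p = 0.15). This difference has no bounded fold, since the old array at 72 h was below background too. That difference was called with the array median for scaling (2.82, adjusted p = 0.021) and was -0.03 with normexp correction. The age difference itself did not change past the threshold on stimulation, in 0 of 8 in CD8 cells against 0.0103% of all genes and in 0 of 8 in CD4 cells against 0%. At an unadjusted p under 0.05 limma gave 0 members in CD8 and 2 in CD4 cells. Ms4a1 in CD4 cells came nearest, with 0.06 ± 0.54 over the stimulated arrays against 3.36 ± 0.56 at 0 h, and a change of -3.30 ± 0.82 (unadjusted p = 9.2e-04, adjusted p = 0.53).

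Several members varied together, in groups that were not separate. Over the 12 arrays at 0 h, Ms4a1 and Blnk had a Pearson r of 0.97, Ms4a1 and Pax5 of 0.86 and Blnk and Pax5 of 0.85. At 0 h Pax5 was above background only on arrays of old cells, and readings below background have no order. The r values of Pax5 are therefore no support for a shared pattern. Cd22 and Cd72 had an r of 0.91, and Cd79b had 0.84 with each of them. Between these groups Cd22 and Ms4a1 had 0.74. Cd79a had an r of -0.12 to 0.50 with the other 7. Over all 28 arrays Cd79b and Cd72 had 0.91 and Ms4a1 and Blnk 0.89, but Cd72 and Blnk 0.26. These arrays share slides, pools, cell types and times, so the values describe the set only.

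**Figure D5:**
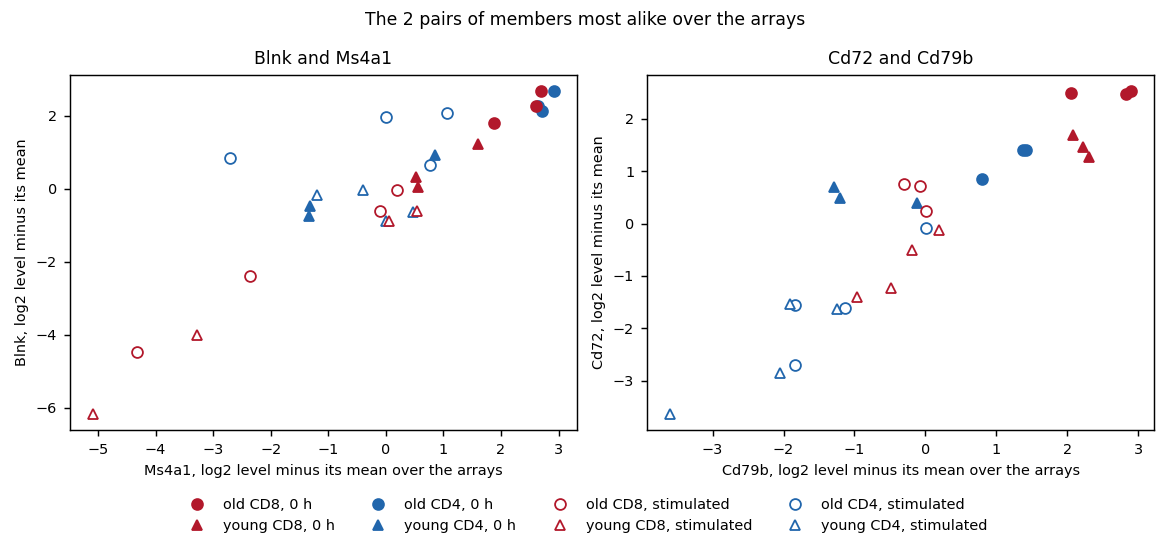
Blnk against Ms4a1 over 28 arrays (left) and Cd72 against Cd79b over 27 (right), each as log2 level minus the gene's own mean over the arrays (both axes). Colour is the cell type, circles are old and triangles young, filled symbols are 0 h and open ones stimulated. The CD8 arrays at 24 and 72 h form the low end for Blnk and Ms4a1 (r of 0.89), whereas the CD4 arrays form the low end for Cd72 and Cd79b (r of 0.91).

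The genes most like the mean of the centred members over 28 arrays were Ly86 and Wdfy4 (r of 0.92 each), Cd74, Ctsh and H2-DMb1 (0.90 each) and Spib (0.89). Over the 12 arrays at 0 h they included Vwa5a (0.96) and Ccl4, Ccl5 and Mef2c (0.95 each). Ly86 and Ctsh belong to the dendritic and myeloid list used above, Cd74 and H2-DMb1 to the class II list, and Spib to the other B lineage list, while Ccl4 and Ccl5 encode chemokines that activated T cells and other leukocytes make.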

How the data were processed

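RNA of the sorted T cells was labelled with Cy3 after Agilent low-input amplification, per the labels' protocols. The intensity values were read and background-corrected with Agilent Feature Extraction (10.1.1.1 on 18 arrays, 9.5.1.1 on 10) before deposit, per the file headers. The log2 values of the series matrix were deposited by the authors, centred per probe; how is not given in the sources used here. Its stimulated CD4 columns differed from the scanner values by a standard deviation of 0.654 to 0.717 against 0.0456 to 0.0529 for the other 20 columns, so no CD4 change from 0 h was taken from it.

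In the present work control spots and outlier spots were left out, repeat spots averaged, and log2 of the processed signal minus the array's 75th percentile taken. Probes were named by accession, symbol or synonym in a RefSeq gene table (GRCm38.p6), otherwise by the file. Each gene is its brightest probe above background on 3 or more arrays. No member probe was saturated. Where every array of a group was below background and every array of the other group above it, "at least" marks a bounded fold. It was computed against, per array, the lowest value well above background (-5.86 to -3.36) or the gene's own level if higher. All genes entered lmFit and eBayes of limma 3.58.1 (R 4.3.3). The 12 arrays at 0 h were fitted by group, all 28 arrays by cell type and time with an age term, and the 16 stimulated arrays for age. The fits at 0 h and over time were tested on simulated data without a slide effect. The fit of the stimulated arrays was not tested in this way. Tables were made with data.table (1.17.8), pandas 2.3.3, numpy 2.4.6 and Python 3.11.15, figures with matplotlib 3.10.9. The number of arrays limits precision, since no stimulated group has a replicate. Replicate numbers at 0 h follow the slides in CD4 cells (correlation of deviations between ages of 0.49 to 0.68 for equal numbers) but not in CD8 cells (-0.41 to 0.08), so they pair the CD4 arrays only.

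The members, the gene lists and the comparisons were chosen with earlier results of these data known. Named are all members; of the B cell lists up to 6 genes per comparison that pass; Ighm, Ebf1 and Cd74; the 6 genes most like the members; and the sort genes. Other lists tested at 0 h without a place in the results are plasma cell (9 genes, 2 called higher in old CD8 cells), plasmacytoid dendritic (8, with 1 higher and 1 lower in old cells of each type), NK (9, none called with age by limma), erythroid and platelet (6, with 1 lower in old cells of each type) and shared receptor signalling genes (16, none called with age by limma). Another marker of the sorting gate and some genes that the rule names are not reported here.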

Additional observations from a re-analysis of the deposited data

Results flagged for a closer look

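The change from 0 h differed between CD8 and CD4 cells past the threshold for Blnk at 24 h (-4.34 ± 0.67, adjusted p = 0.0021), with Blnk at -3.38 and -5.00 in old and young CD8 cells and at 0.97 and -1.19 in old and young CD4 cells. At 72 h the fitted difference was -5.98 (adjusted p = 0.00011), with -5.47 and -7.17 in old and young CD8 cells, both not well above background, and -0.15 and -1.04 in old and young CD4 cells. Cd22 at 72 h passed too (-4.86 ± 1.18, adjusted p = 0.017), with the 4 stimulated arrays at 72 h not well above background. With normexp the Blnk values were -2.46 at 24 h (adjusted p = 0.071) and -1.06 at 72 h (adjusted p = 0.52), and with the CD8 time labels of the series matrix the value at 24 h was -1.46 (adjusted p = 0.11). This test was added after the time courses had been seen. CD8 and CD4 arrays lie on different slides throughout, and stimulated arrays on other slides than those at 0 h. For the CD4 arrays of slide 12 the scanner also changed between 0 h and stimulation. Cell type, time, slide and scanner therefore cannot be told apart here.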

How the results depend on the processing

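Of 41 called differences of single members, 18 kept direction and call in all alternatives, and over the 577 alternatives of these 41 none reversed and 79 lost the call. In CD4 cells the 4 members called with age at 0 h became 2 with median scaling, 5 with slide as a fixed and 6 with slide as a random block, 0 (6 at an unadjusted p under 0.05) with only the 6 CD4 arrays in limma, and 0 to 5 without 1 array. In CD8 cells the 2 became 1 with median scaling, 1 with no filter on dim probes, 4 with slide as a random block and 0 to 4 without 1 array. Slide as a random block gave 1 member, Cd79b, in the test between the cell types' age effects and 0 of 8 in CD8 minus CD4 cells, where leaving out 1 array gave 3 to 5 (5 without array 3 of young CD4 cells). Of 32 tests of CD8 change minus CD4 change the 3 calls became 1 with normexp, 5 with quantile normalization and 6 without slide 9 at 0 h. Median scaling gave 1 call, Cd22, for age in stimulated CD8 cells. Values that turned sign, none of them called, were Cd79a for age in CD4 cells at 0 h (-0.62 to 0.36 without 1 array, above 0 without array 3 of young CD4 cells), Blk there (-0.26 to 1.82, below 0 without array 2 of old CD4 cells) and Cd22 in stimulated CD8 cells (-0.031 with normexp). Calls against 0 h numbered 20 of 32 in CD8 cells (15 to 22 over the alternatives) and 9 of 32 in CD4 cells (8 to 12). The causes were not tested.

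The replicate block over both cell types uses numbers that follow the slides in CD4 cells only. With it 1 member was called with age in CD4 cells, 1 in CD8 cells and 3 in CD8 minus CD4 cells. With the block for CD4 arrays alone, added after seeing the data, 5 were called with age in CD4 cells. Over all genes the counts called with age ranged from 5 to 4440 in CD4 and from 173 to 1887 in CD8 cells, with 337 and 430 as reported, and for CD8 minus CD4 cells from 266 to 3561 with 2650 as reported. The share of higher calls was 70.0% in old CD4 cells and 91.9% with median scaling, and 64.1% for CD8 minus CD4 cells and 47.9% with median scaling. Dim signals limit Cd79a, Blk, Pax5 and, after stimulation, Cd22.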
